A study of Drosophila melanogaster with 6 samples.

Results

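The enzymes that build the core of mucin-type O-glycans were followed in whole Drosophila melanogaster embryos with and without a normal sage gene. They comprise 10 genes with 12 probe sets among the 18769 probe sets tested. They are 8 polypeptide N-acetylgalactosaminyltransferases (Pgant2, Pgant3, Pgant4, Pgant5, Pgant6, Pgant8, Pgant9 and Pgant35A) and 2 core 1 galactosyltransferase-like genes (C1GalTA and CG8708). The 9 genes other than CG8708 have 11 probe sets and are a selection from the annotated enzymes of these steps, of which others are described further on. CG8708 was chosen by its measured levels on these arrays, for its large fall in the mutants, so they are given as a description with no test.

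Each group had 3 samples of embryos at stages 11 to 16, aged at 25 degrees and passed through a COPAS sorter, which sorts large particles in flow. The wild type group was the Oregon R strain, and the other group was sage mutant embryos, with no other treatment named in the labels. The sage allele, its genetic background and the sorting criterion are not given in the sources used here. Strain and loss of sage cannot be told apart. Labelling used a 3′ kit, with 1 Affymetrix array per sample, and values are the authors' log2 signals per probe set, on which a difference of 1 is a doubling.

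The sage gene encodes a bHLH regulator made in the embryo's salivary glands, which are specialised for secretion. Mucin-type glycosylation takes place in the Golgi. A Pgant enzyme first joins N-acetylgalactosamine to a serine or threonine of the protein. A core 1 galactosyltransferase then adds galactose, which gives the T antigen, the main O-glycan of fly embryos. Glucuronic acid may be added to that disaccharide. The products include the mucins that line and fill secretory tubes.

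sage itself, the gene altered in the mutants, gave 8.21, 8.61 and 7.93 on the wild type arrays, listed here and throughout in the order of replicate number, and 5.28, 5.44 and 5.12 on the mutant arrays. Of 7 measured salivary gland markers, 4 were lower in the mutants (sage, PH4alphaSG1, PH4alphaSG2 and Papss). The markers fkh, eyg and sens were not called, at log2 changes of −0.28, −0.39 and −0.99, and fkh overlapped between the groups. The mean log2 signal of all 7, which include sage itself, lay between 8.36 and 8.80 on the wild type arrays. It lay between 6.87 and 7.42 on the mutant arrays, with no overlap. In whole embryos, fewer gland cells and less RNA per cell cannot be told apart. Whether both groups held the same mix of embryo stages was not tested. The mean log2 signal of 4 midgut markers also did not overlap, at 8.50 to 8.62 in wild type and 8.98 to 9.61 in the mutants. Of these 4, alphaTry alone was called higher (log2 change 1.44), betaTry had 1.56 (limma adjusted p = 0.0732), and mex1 and GATAe overlapped, at 0.16 and −0.25. The list means of trachea, hemocyte, nervous system, muscle and epidermis markers overlapped between the groups, though single markers did not. Pxn was called lower, and NimC1 (both of hemocytes) and Mp20 (muscle) were called higher. Without a call, repo and pros (nervous system) lay wholly lower in the mutants. Those wholly higher without a call were serp and verm (trachea), Hml and He (hemocytes), and Ddc and ple (epidermis). The control transcripts on the arrays, read near both ends, had a mean 5′ minus 3′ difference of −1.84 ± 0.08 (SD, n = 3) for wild type. For the mutants it was −3.68 ± 0.61 (SD, n = 3), a lower 5′ signal with no overlap. Wild type replicate 2 correlated least with its own group (mean r across probe sets 0.977). The part of these differences in the results was not tested, beyond the fits that leave out an array or take the control difference as a covariate. Because the control difference did not overlap between the groups, the covariate fit can hardly separate it from the group. Its log2 changes are therefore poorly determined.

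Among the 11 probe sets other than that of CG8708, 3 fell in the mutants and none rose at a limma adjusted p under 0.05, which is adjusted over all probe sets. They belong to Pgant6, Pgant8 and the dimmer probe set of Pgant2. Of all probe sets tested, 1.93% were called lower and 2.1% higher. At an unadjusted p under 0.05 there were 4 of the 11, all lower, against 18.7% of all probe sets in either direction. The mutant values lay wholly below the wild type values at 4 of the 11 and wholly above at 0, against 14.1% and 10.3% of all probe sets. The median log2 difference of the 11 was −0.23, and that of all probe sets was −0.03. Taking for each gene its brightest probe set, the 9 genes had a median of −0.04, against −0.01 over all genes. Of the 11, 7 had a difference below 0, as did 56.6% of all probe sets. By brightest probe set 2 of the 9 fell and none rose, against 2.1% and 2.88% of all genes. Of these 9, 3 lay wholly below wild type, against 13.4% of all genes.

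**Figure D1:**
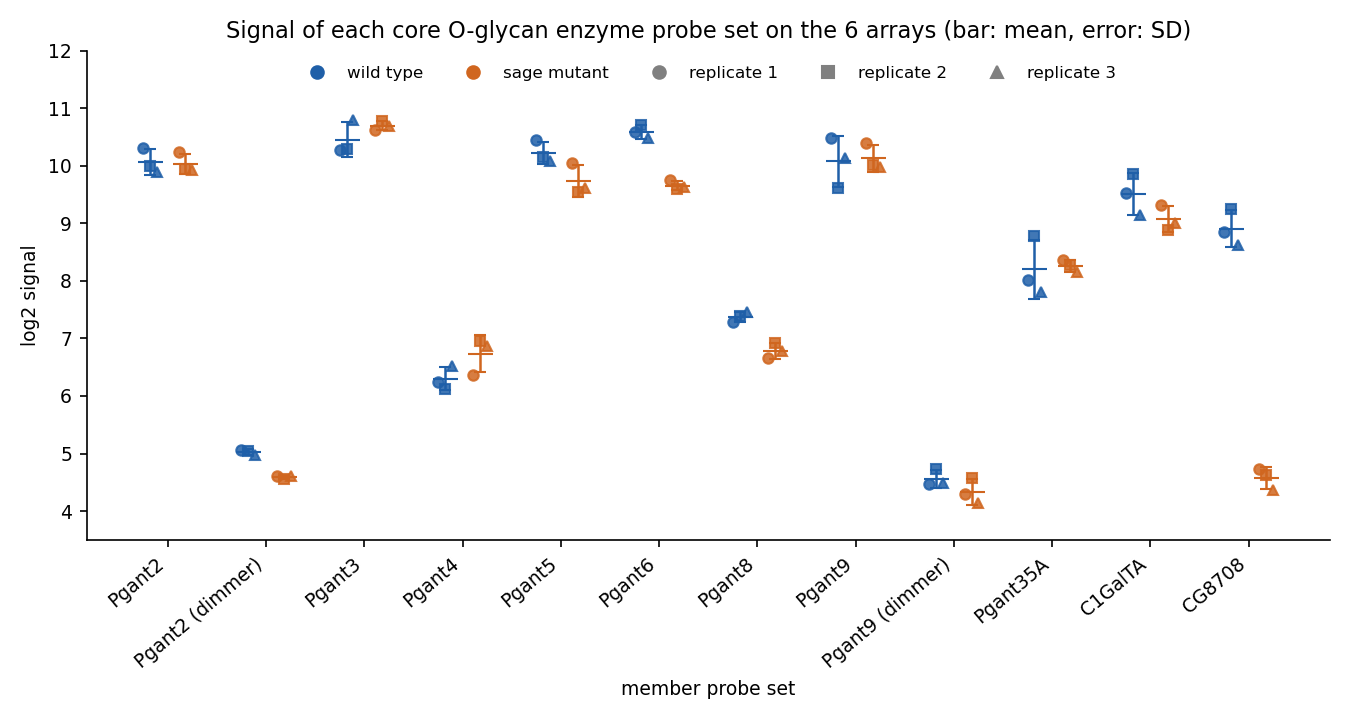
Log2 signal (vertical axis) of each of the 12 probe sets on the 6 arrays, wild type in blue and sage mutant in orange, with a marker shape for each replicate number, the mean as a bar and the SD as an error bar. The groups are apart for Pgant6, Pgant8, Pgant5, the dimmer Pgant2 probe set and CG8708, and levels of different probe sets are not comparable with each other.

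Pgant6, one of the enzymes that start O-glycans, had the largest fall of the 9 genes. Its signals were 10.59, 10.71 and 10.48 in wild type and 9.75, 9.59 and 9.63 in the mutants. Every mutant array lay below every wild type array, and the gap was wider than the range within either group. Mean signals were 10.59 ± 0.12 in wild type and 9.66 ± 0.08 in the mutants (SD, n = 3 each), a 1.91-fold fall (log2 change −0.93, 95% interval −1.18 to −0.69, limma adjusted p = 0.00889). The labels state no pairing, but samples of the same replicate number deviated together, so the numbers were also taken as pairs. With these pairs as a block the limma adjusted p was 0.0299. The call was lost without mutant replicate 2 (limma adjusted p = 0.0536) or mutant replicate 3 (limma adjusted p = 0.0623), with log2 changes of −0.90 and −0.92. When the end-to-end difference of the control transcripts entered as a covariate, the log2 change was −1.10 (SE 0.31, limma adjusted p = 0.391), in a fit that called 0 of the 18769 probe sets. The probe set carries the suffix _s_at, which Affymetrix gives to probes shared by more than 1 transcript. That of C1GalTA and the brighter of Pgant9 carry it too. Whether these probes match other genes was not tested.

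Pgant8, a second initiating enzyme, also fell. Its signals were 7.28, 7.38 and 7.46 in wild type and 6.65, 6.93 and 6.78 in the mutants. The groups did not overlap, and the gap between them was wider than the range within either. The means were 7.38 ± 0.09 and 6.79 ± 0.14 (SD, n = 3 each), a 1.50-fold fall (log2 change −0.59, 95% interval −0.85 to −0.32, limma adjusted p = 0.0397). The adjusted p was 0.0565 with the replicate block, and it lay between 0.0516 and 0.164 when any 1 of the 6 arrays was left out, so no such fit called Pgant8. With the control difference as a covariate its log2 change was −0.32 (SE 0.32, against 0.11 without the covariate). That fit can hardly separate the control difference from the group.

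Pgant2 had 2 probe sets that differed in what they showed. The dimmer gave 5.07, 5.04 and 4.97 in wild type and 4.61, 4.55 and 4.60 in the mutants. Every mutant value lay below the lower quartile of its own array, and every wild type value above it. This probe set fell by 0.44 on the log2 scale (95% interval −0.64 to −0.23, limma adjusted p = 0.0455), with an adjusted p of 0.0800 with the replicate block and 0.0581 to 0.165 without any 1 array. The brighter gave 10.32, 9.997 and 9.89 in wild type and 10.23, 9.94 and 9.93 in the mutants, and the groups overlapped. Its log2 change was −0.04 (95% interval −0.40 to 0.33, limma adjusted p = 0.94). Which transcripts each detects is not given in the files, and the difference between the probe sets was not tested.

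Pgant5, which in flies is needed for acid secretion in the larval midgut, had signals of 10.44, 10.15 and 10.08 in wild type and 10.05, 9.54 and 9.62 in the mutants. The groups did not overlap, but mutant replicate 1 lay only just under wild type replicate 3. The log2 change of −0.48 (95% interval −0.90 to −0.07) did not pass (limma adjusted p = 0.196). Of the 4 midgut markers, both trypsins (alphaTry and betaTry) lay above wild type on all mutant arrays, with only alphaTry called, and the other two overlapped. With array weights Pgant5 was called lower (limma adjusted p = 0.0315), and with the control difference as a covariate its log2 change was −1.24 (SE 0.39, limma adjusted p = 0.455).

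**Figure D2:**
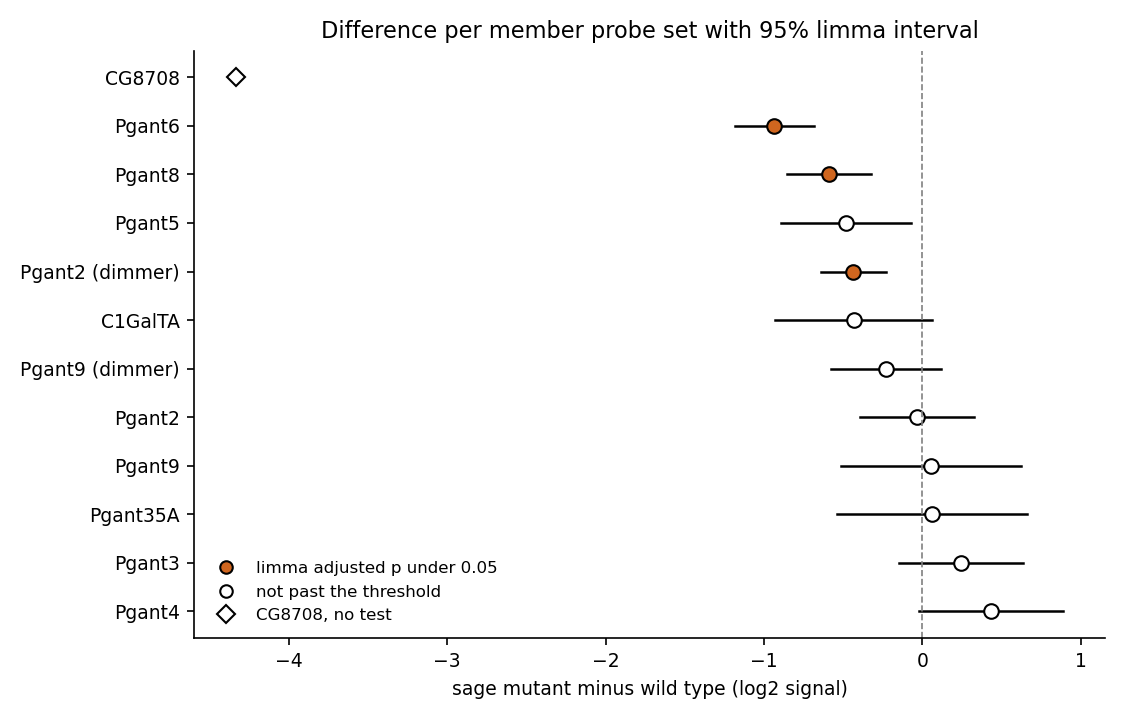
Sage mutant minus wild type on the log2 scale (horizontal axis) for each probe set, with the 95% limma interval as a line and filled points where the adjusted p was under 0.05. Pgant6, Pgant8 and the dimmer Pgant2 probe set are filled at −0.93, −0.59 and −0.44, and CG8708 is an open diamond at −4.33 with no interval because it was chosen for its fall.

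Pgant4, which in flies protects the secretory cargo receptor Tango1 from cleavage, had the largest positive difference of the 9 genes. Its signals were 6.25, 6.13 and 6.52 in wild type and 6.36, 6.96 and 6.88 in the mutants. Mutant replicate 1 fell inside the wild type range and the other mutants lay above it. The log2 change was 0.44 (95% interval −0.02 to 0.89, limma adjusted p = 0.287). With the control difference as a covariate it was 1.26 (SE 0.44, limma adjusted p = 0.513). Over the alternatives run its adjusted p lay between 0.0815 and 0.629, and none called it.

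Pgant3, which glycosylates the integrin ligand Tiggrin in the fly wing, had 10.27, 10.29 and 10.80 in wild type and 10.62, 10.78 and 10.69 in the mutants. The 3 mutant values lay inside the wild type range, with a log2 change of 0.24 (95% interval −0.15 to 0.63, limma adjusted p = 0.515). Pgant35A, needed for the tracheal tubes of the fly embryo, had 8.01, 8.78 and 7.80 in wild type and 8.36, 8.27 and 8.15 in the mutants. Wild type replicate 2 stood above all other arrays for Pgant35A, and the wild type SD was 0.52 against 0.10 in the mutants. The log2 change of Pgant35A was 0.06 (95% interval −0.54 to 0.66, limma adjusted p = 0.937), and without wild type replicate 2 it was 0.35 (limma adjusted p = 0.149).

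Pgant9, whose splice forms act on the glue proteins of the larval salivary gland, had 2 probe sets. The brighter gave 10.48, 9.61 and 10.14 in wild type and 10.40, 10.02 and 9.98 in the mutants. Its mutant values lay inside the wild type range, and the log2 change was 0.05 (95% interval −0.52 to 0.62, limma adjusted p = 0.941). That sign turned with arrays centred on their medians, and the value was −0.18 without wild type replicate 2. The dimmer probe set lay below the lower quartile of all 6 arrays, at 4.47, 4.74 and 4.48 in wild type and 4.29, 4.57 and 4.14 in the mutants. Its log2 change was −0.23 (95% interval −0.58 to 0.12, limma adjusted p = 0.481). At both probe sets an interval of this width holds falls and rises that these 6 arrays could not resolve.

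C1GalTA, the main core 1 galactosyltransferase of flies, is known for making the T antigen of hemocytes and the nervous system. Its signals were 9.53, 9.86 and 9.14 in wild type and 9.32, 8.89 and 9.01 in the mutants. Mutant replicate 1 lay above wild type replicate 3, so the groups overlapped. The log2 change was −0.43 (95% interval −0.93 to 0.06, limma adjusted p = 0.333), and it lay between −0.62 and −0.26 when 1 array was left out. The interval reaches from a fall of the size of Pgant6 to no change. Of 5 hemocyte markers, 1 was lower and 1 higher in the mutants, and of 4 nervous system markers none was called, with 2 at an unadjusted p under 0.05.

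CG8708 carries the synonym dC1GalT2 in RefSeq and is a relative of C1GalTA. Its signals were 8.85, 9.25 and 8.63 in wild type and 4.73, 4.62 and 4.37 in the mutants. All mutant values lay below the lower quartiles of the same arrays, which were 4.75, 4.82 and 4.70. The means were 8.91 ± 0.32 and 4.58 ± 0.19 (SD, n = 3 each), a difference of −4.33 on the log2 scale or 20.2-fold. Because the mutant signal was that low, the fold is not exact. The difference stayed between −4.48 and −4.16 when any 1 array was left out. Within its group wild type replicate 2 was highest, as it was for C1GalTA, and this array stood apart over the whole table too.

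The 2 initiating enzymes that fell by their brightest probe set lie on chromosome arm 3L, whereas C1GalTA lies on 2L and CG8708 on 2R. Genes next to the members in the RefSeq order were examined after the values had been seen. For each member the 2 nearest protein-coding genes on either side were taken, and 32 of these 40 places had a probe set of their own. The only one called was CG4230 beside Pgant5, which was lower (log2 change −0.66, limma adjusted p = 0.0476). None of 3 measured neighbours of CG8708, 4 of Pgant6 or 4 of Pgant8 was called. Pgant8 stands in a row of relatives: CG7579 and CG7304, which carry dppGalNAcT synonyms in RefSeq, lie next to it. Their log2 changes were −0.07 and 0.13 (limma adjusted p = 0.809 and 0.552), at signals low enough that mean values in each group lay between 4.11 and 4.42. Their difference from Pgant8 was not tested.

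The genes with levels most like each of 3 members were found by the distance over the 6 arrays between log2 values centred on each gene's own mean, among 11981 other genes. For CG8708 they were CG14756, CG34276 and ry, which encodes xanthine dehydrogenase. Their distances were 0.48, 0.61 and 0.68, with log2 differences of −4.59, −4.73 and −4.06. For Pgant6 they were GrlHz, CG30466 and CG11200, at distances of 0.13, 0.17 and 0.18 and log2 differences of −1.01, −0.92 and −0.86. For Pgant8 they were Toll-7, a Toll family receptor, CG9451 and CG13293, at 0.13, 0.18 and 0.18, with −0.60, −0.51 and −0.55. Within each group the order of the arrays was that of the member for GrlHz and CG30466, and differed in at least 1 group for the other 7. The likeness is a description over 6 arrays and rests mainly on the size of the group difference.

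The other enzymes of the same steps were then counted, with 1 probe set per gene, the brightest. Over all genes 2.1% were called lower and 2.88% higher, and 22.5% had an unadjusted p under 0.05. Of 6 other polypeptide N-acetylgalactosaminyltransferases none was called by limma, with 2 at an unadjusted p under 0.05, and their median log2 difference was −0.06. Pgant7, which prefers peptides that already carry a sugar, gave 9.85, 10.83 and 9.89 in wild type and 9.68, 9.27 and 9.37 in the mutants. Its groups did not overlap (log2 change −0.75, limma adjusted p = 0.215), and its dimmer probe set had −0.91 (limma adjusted p = 0.0763), also without overlap. Wild type replicate 2 was far above the other wild type arrays, and without it the brighter had a log2 change of −0.43 in place of −0.75. CG10000 had 0.42 (limma adjusted p = 0.258).

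Of 7 measured core 1 galactosyltransferase-like genes beside C1GalTA and CG8708, none was called, with 3 at an unadjusted p under 0.05. RefSeq gives 6 of them a galactosyltransferase name or a dC1GalT synonym, and CG34451 none. The median of the list was 0.04. CG3119 (dC1GalT7) gave 6.39, 6.14 and 6.44 in wild type and 6.57, 7.44 and 7.22 in the mutants, all above wild type. Its log2 change was 0.75 (limma adjusted p = 0.145), and it passed without mutant replicate 1 (1.01, limma adjusted p = 0.0242). CG34057 (dC1GalT6) had 0.38 (limma adjusted p = 0.133), with no overlap between the groups. The 7 genes had log2 differences between −0.47 and 0.75, beside −4.33 for CG8708. Their wild type means lay between 4.39 (CG2983) and 7.45 (tgy), against 8.91 for CG8708. These lower signals left less room for a fall, least at the dimmest genes. The brighter ones tgy, CG2975 and CG3119 (wild type means 7.45, 6.47 and 6.32) differed by −0.47, 0.19 and 0.75. CG8708 was chosen for its fall, and its contrast with the 7 genes was not tested.

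**Figure D3:**
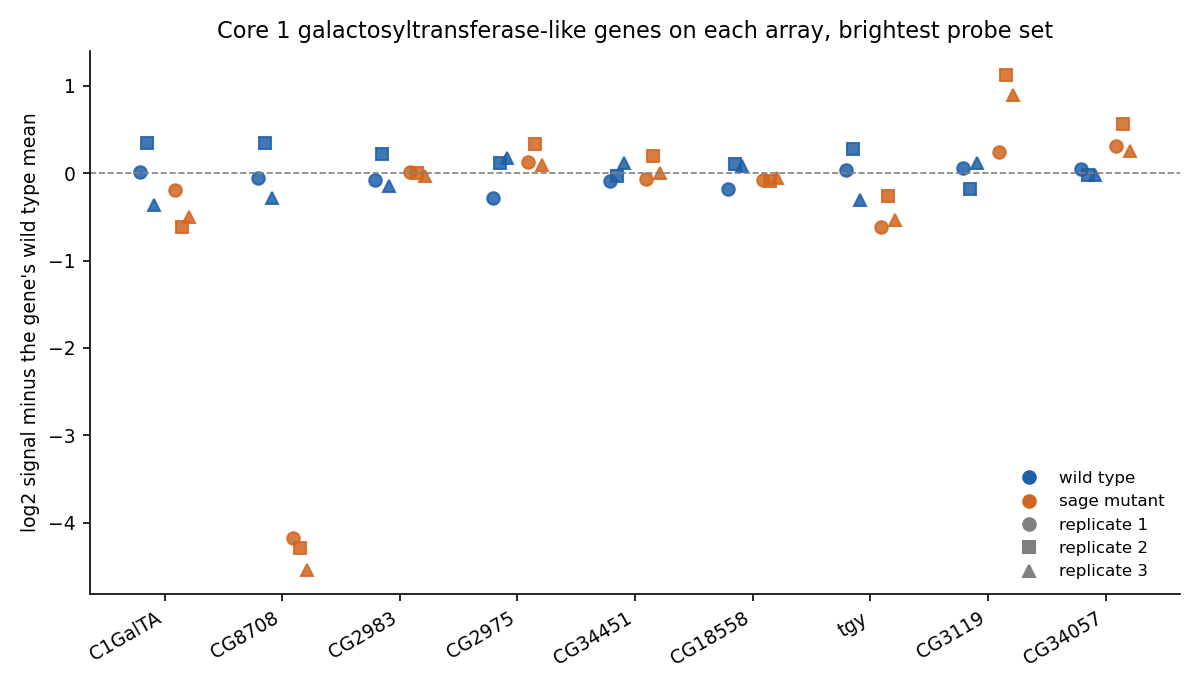
Log2 signal of each array minus the gene's wild type mean (vertical axis) for C1GalTA, CG8708 and the 7 other measured core 1 galactosyltransferase-like genes, wild type in blue and sage mutant in orange, with a marker shape for each replicate number. CG8708 lies more than 4 units below its wild type mean on each mutant array, and CG3119 and CG34057 lie above theirs on each mutant array.

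Genes listed for core 1 extension and sialylation include enzymes that act on other glycans too. Of 5 measured, 2 fell and none rose, and the median was −0.01. GlcAT-P, a glucuronyltransferase that can cap core 1, gave 8.37, 8.38 and 8.15 in wild type and 7.54, 7.13 and 7.46 in the mutants, a 1.90-fold fall (limma adjusted p = 0.0231). Its probe set carries the same shared-transcript suffix as that of Pgant6. GlcAT-I, known for the linker of glycosaminoglycan chains, gave 9.996, 10.27 and 9.86 in wild type and 9.29, 8.96 and 9.03 in the mutants. It fell 1.93-fold (limma adjusted p = 0.0252, and 0.0519 with the replicate block). Neither overlapped between groups, and each lost its call without wild type replicate 1 or without mutant replicate 2 or 3, GlcAT-P also without wild type replicate 3. GlcAT-S, the relative of GlcAT-P, differed by 0.31 on the log2 scale (limma adjusted p = 0.19). Csas, which activates sialic acid, differed by 1.23 (limma adjusted p = 0.0807). GlcAT-S and Csas both lay higher on all mutant arrays than on any wild type array.

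The supply of sugar donors gave no call. Of 11 measured genes for nucleotide sugar supply and Golgi transport none was called by limma, and 5 had an unadjusted p under 0.05. A total of 8 of the 11 had a log2 difference below 0, against 52.1% of all genes. The median was −0.27. Mutant values lay wholly below wild type for 4 of the 11 and wholly above for 1, against 13.4% and 12.9% of all genes. Ugalt, the Golgi transporter of UDP-galactose, differed by −0.64 on the log2 scale (limma adjusted p = 0.2). Nagk, which returns N-acetylglucosamine to the pool, had −0.61 (limma adjusted p = 0.144). The groups overlapped for Ugalt and not for Nagk.

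Among 17 measured mucins and other mucin-type glycoproteins, the proteins that carry such glycans, 1 rose and none fell. It was Muc18B, with 5.98, 5.40 and 6.11 in wild type and 6.95, 7.45 and 7.61 in the mutants. This was a 2.84-fold rise (log2 change 1.51, limma adjusted p = 0.0268), and the call was lost on leaving out replicate 1 or 3 of wild type, or replicate 2 or 3 of the mutants. The groups did not overlap for 4 of the 17, all higher in the mutants, against 12.9% of all genes. Beside Muc18B these were Muc55B, Muc26B and Muc11A, with log2 differences of 1.34, 1.17 and 0.49 (limma adjusted p = 0.063, 0.112 and 0.163). The median of the list was 0.11. Part of the list was dim: Muc14A, Muc12Ea, Muc68D, Muc4B and Muc68E had wild type means from 3.59 to 4.53. These lay below the lower quartiles of the wild type arrays (4.77 to 4.84), where a fall could hardly show.

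Other kinds of protein glycosylation served as a comparison. Of 13 measured genes of other O-glycosylation, 1 fell: shams, which adds xylose to O-linked glucose on Notch, with a 2.08-fold fall (limma adjusted p = 0.0288). Of 17 measured genes of N-glycan transfer and processing, 1 fell: Stt3B, a catalytic subunit of oligosaccharyltransferase, with a 1.77-fold fall (limma adjusted p = 0.0396). Neither passed on leaving out any of those same 4 arrays, and Stt3B did not pass without wild type replicate 2 either. The medians of these lists were −0.12 and −0.21. Against these, 2 of the 9 core enzymes other than CG8708 fell by their brightest probe set, and 2.1% of all genes were called lower. The call of Pgant8, 1 of these 2, was lost when any 1 array was left out. The lists were not tested against each other.

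**Figure D4:**
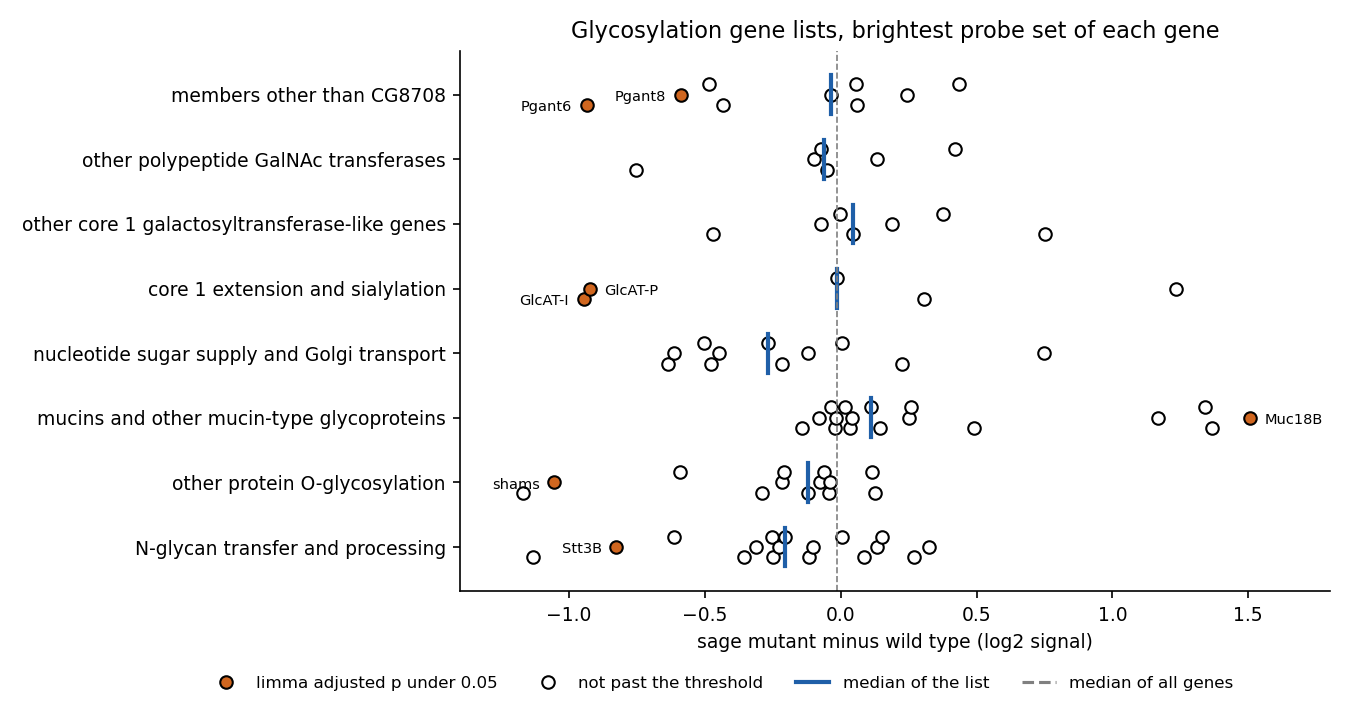
Sage mutant minus wild type on the log2 scale (horizontal axis) for the brightest probe set of each gene in the 9 core enzymes other than CG8708 and in 7 other glycosylation lists, with named filled points where the limma adjusted p was under 0.05, a blue bar at each list's median and a dashed line at the median of all genes. Pgant6 and Pgant8 are filled among the core enzymes, and 5 genes are filled in the other lists, of which Muc18B alone lies above 0.

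The calls of Pgant6, Pgant8 and the dimmer Pgant2 probe set differed in how far they held. Pgant6 passed under 13 of 16 alternative settings, Pgant8 under 5 of 16 and the dimmer Pgant2 probe set under 3 of the 12 that gave it a value. Their log2 changes kept their sign under all of these settings. They ranged from −1.10 to −0.87 for Pgant6, from −0.67 to −0.32 for Pgant8 and from −0.50 to −0.40 for the Pgant2 probe set.

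**Figure D5:**
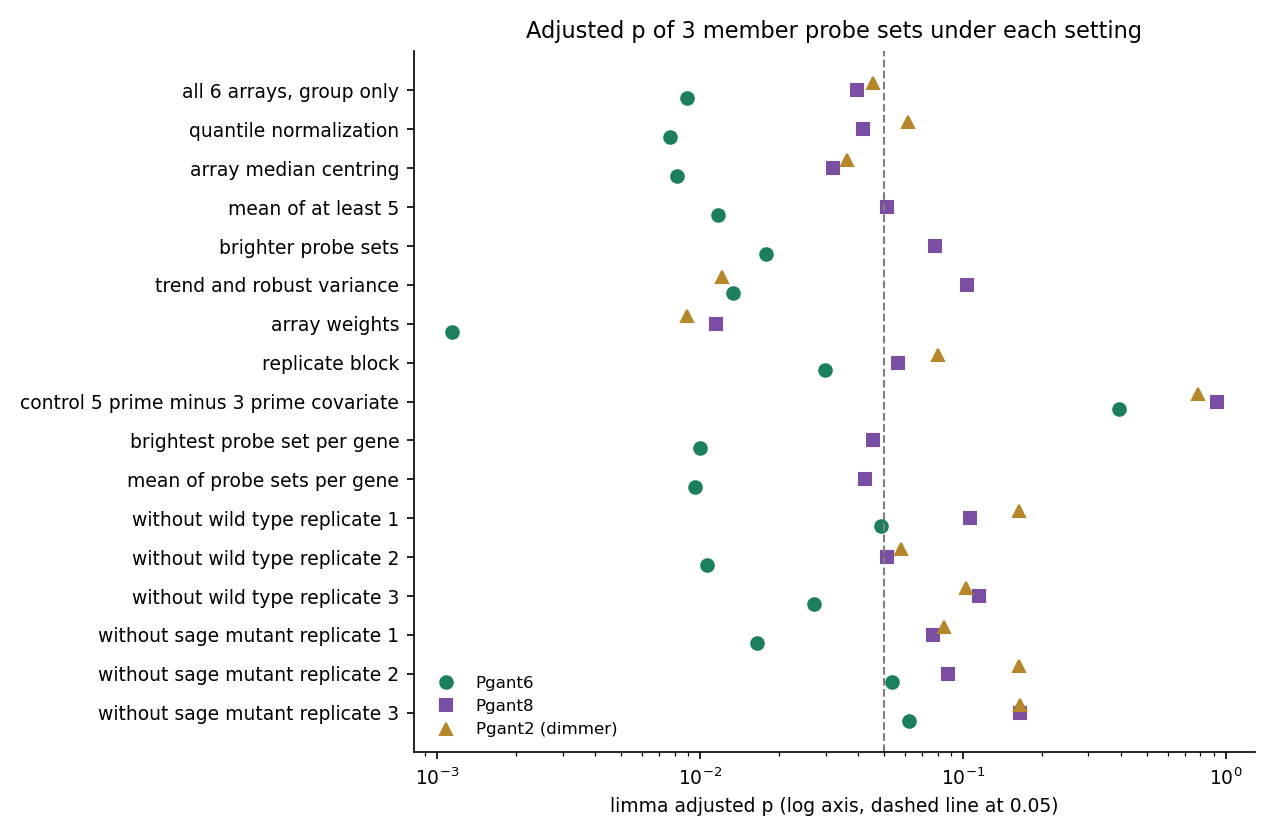
Limma adjusted p (horizontal log axis) of Pgant6, Pgant8 and the dimmer Pgant2 probe set under the fit to all 6 arrays and each alternative setting (rows), with a dashed line at 0.05. Pgant6 lies left of the line except without mutant replicate 2 or 3 and with the control covariate, whereas Pgant8 and the Pgant2 probe set lie right of it whenever an array is left out.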

How the data were processed

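The deposited table held 1 log2 signal per probe set and array, made by the authors with RMA and Partek, per the submitters' processing notes. Their versions and settings are not given in the sources used here. By default RMA corrects background and normalizes by quantiles, so the arrays are on a common scale and no absolute amount is known. The number of arrays limits the precision.

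Of 18952 probe sets, 183 controls were set aside. Genes were named from the platform annotation, with symbols updated through RefSeq (Release 6 plus ISO1 MT), where 11894 of 11983 genes were found. Of the tested probe sets, 13647 named 1 gene, 402 several and 4720 none here. The brightest probe set has the highest mean over the 6 arrays. A model with only the group as term was fitted with limma 3.58.1 (R 4.3.3; lmFit, then eBayes) on all probe sets with Benjamini-Hochberg adjustment. The fit was first tested on simulated data with known changes. It called 56 of 100 changes of 1 on the log2 scale and 85 of 100 changes of 2. Of its 150 calls, 9 were false. Smaller changes were not simulated.

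Samples with the same replicate number in their titles deviated together (correlations across probe sets of 0.17, 0.28 and 0.31). Those of different numbers had −0.30 to 0.14, the highest for wild type replicate 1 with mutant replicate 3. The numbers were therefore taken as pairs, though the labels state no pairing. The labels do not say whether replicates are separate embryo collections: p-values cover the spread of these 6 arrays alone, part of which may be technical. The fit did not use the pairs, and a fit with them as a block was run beside it.

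The members, lists and tests were chosen with earlier results of these data known. Every probe set of the members is named. From each other list the genes named are those called, or the 2 with the smallest p; the 3 nearest genes are given for CG8708, Pgant6 and Pgant8, with GlcAT-S, Csas, Muc55B, Muc26B, Muc11A, marker genes, the neighbours and other probe sets of a named gene added after their values were seen. Alternatives were the replicate block, array weights, trended and robust variance, quantile normalization, centring, removal of dim probe sets, a covariate (5′ minus 3′ signal averaged over 5 control pairs), 1 value per gene and leaving out each array.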

Additional observations from a re-analysis of the deposited data

How the results depend on the processing

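The count of 3 lower probe sets among the 11 other than that of CG8708 was 1 under a minimum mean of 5, under the filter to brighter probe sets or with the replicate block, 0 with the control 5′ minus 3′ covariate, and 0 to 1 when 1 array was left out. With that covariate limma called 0 of 18769 probe sets, and 3 of the 11 had an unadjusted p under 0.05. No setting called a member higher. The 5 calls in the other glycosylation lists became 17 with array weights, 9 under trended, robust variance, 8 under either filter on dim signal, 0 with the covariate and 0 to 9 when 1 array was left out. Of all probe sets, 363 were lower and 394 higher, against 1230 and 1507 with array weights, and 465 and 334 after centring on array medians. Leaving out 1 array gave 62 to 507 lower and 69 to 624 higher, lowest without mutant replicate 2 or 3. Filters on dim signal leave out the dimmer Pgant2 probe set and test fewer probe sets; the cause of the other moves was not tested. The replicate block changed no other call among the genes named from these lists than those of Pgant8, the dimmer Pgant2 probe set and GlcAT-I.

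Signs turned for 3 values near 0, none of them called. The brighter Pgant2 probe set ranged from −0.14 to 0.089 when 1 array was left out: 0.089 without wild type replicate 1, and 0.01 and 0.02 without mutant replicates 2 and 3. The brighter Pgant9 probe set had −0.013 after centring, −0.28 with array weights, −0.78 with the covariate, and −0.18 and −0.08 without wild type replicate 2 and mutant replicate 1 (range −0.18 to 0.26). Pgant35A had −0.0066 after centring, −0.034 with the covariate, and −0.03 and −0.14 without wild type replicates 1 and 3 (range −0.14 to 0.35). CG8708 had −4.31 and −4.40 after quantile normalization and centring. Detection above background was not assessed, which limits the values of CG8708 in the mutants and of both dimmer probe sets.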
